A study of Homo sapiens with 6 samples.

Results

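A set of 10 genes of the myogenic basic helix-loop-helix (bHLH) system was followed in RMS13 cells, an established human rhabdomyosarcoma line, after GLI1 was lowered by RNA interference. The rule names them by symbol and uses no measured value, though they were chosen with earlier results of these data known. They are the 4 myogenic factors MYF5, MYOD1, MYOG and MYF6, the 2 E-protein partners TCF12 and TCF3, and the 4 inhibitors ID1, ID2, ID3 and MSC, together 10 of the 25702 genes in the table. The study measured RNA by sequencing in 3 libraries of cells given a small interfering RNA (siRNA) to GLI1, called siGLI1, and 3 of cells given a non-targeting siRNA, called siNT2, all after 72 h. Both groups were grown in RPMI medium with serum and differ in the siRNA alone, as far as the labels state. RMS13 is a single tumour line, and no label says that replicates were separate cultures, so p-values here reflect differences among these libraries only, and such differences may be technical. GLI1 is the zinc finger factor at the end of the Hedgehog pathway. Its normalised read count was 579.9, 905.8 and 1274.1 in siGLI1 replicates 1, 2 and 3, and 11962.5, 17836.9 and 12774.1 in siNT2 replicates 1, 2 and 3, with no overlap. The means were 920 ± 347 in siGLI1 libraries and 14191 ± 3183 in siNT2 libraries (SD, n = 3 each), so the siGLI1 mean was 6.48% of the siNT2 mean.

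Myogenic bHLH factors switch on skeletal muscle genes. They bind a short DNA element, the E-box, as dimers with widely expressed E proteins. ID proteins have the dimerising helix-loop-helix but lack the basic stretch that contacts DNA, so a dimer with an ID protein cannot bind. MSC, also called musculin, is a bHLH repressor that takes E proteins away from MYOD1 and occupies E-boxes itself. Rhabdomyosarcoma cells typically make MYOD1 and MYOG yet keep dividing and differentiate poorly.

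Values below are normalised read counts, which are the authors' read counts per gene divided by a size factor for each library and not by gene length. A fold change is the siGLI1 mean less the siNT2 mean of log2(value + 1). Its p comes from limma, adjusted by the Benjamini-Hochberg method over the 15622 genes with a mean of 10 or more, and a gene is called where the adjusted p is under 0.05. The libraries held 13673977 to 18947614 recovered reads. A level of 3 reads or fewer, 2.39 to 3.29 in normalised units, was treated as the floor, which covers counting error only. Libraries of a group also differed from each other in step with gene GC content. Each library's log2 values less the mean of its group had, across genes, a Spearman's rho with GC content of -0.70, -0.31 and 0.75 in siGLI1 replicates 1, 2 and 3, and -0.49, 0.70 and -0.60 in siNT2 replicates 1, 2 and 3. Across genes, the log2 fold change also had a Spearman's rho with GC content, of -0.29. The GC correction took from each library its GC trend relative to the mean of all 6 libraries. It thus also removed the GC trend between the groups, and so moved fold changes. Values after this correction, given as with the GC trend removed, are stated where they change a call.

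Of 8 muscle lineage markers, 7 exceeded the floor in some library, and the list summed to 53971 to 76712 in siGLI1 libraries and 45882 to 62366 in siNT2 libraries. PAX7 was at or under 3 reads everywhere. The 6 fibroblast markers summed to 1032 to 1166 in siGLI1 libraries and 1014 to 1403 in siNT2 libraries, mostly from PDGFRA and COL3A1. Of 6 epithelial markers only EPCAM exceeded the floor, and the list summed to 28.6 to 41.0 in siGLI1 libraries and 53.8 to 60.6 in siNT2 libraries. The 6 leukocyte markers summed to 58.3 to 111.6 in siGLI1 libraries and 51.0 to 91.3 in siNT2 libraries, with PTPRC and LYZ at the floor. The 6 endothelial markers summed to 204.5 to 239.0 in siGLI1 libraries and 137.3 to 147.5 in siNT2 libraries. Within this last list PECAM1 was higher, 86.3 ± 4.54 in siGLI1 libraries and 11.0 ± 4.71 in siNT2 libraries (SD, n = 3 each; log2 fold change 2.96, adjusted p = 0.00226). The part of these markers in the results below was not tested. In bulk RNA, fewer cells making a transcript and less transcript per cell cannot be told apart.

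The inhibitors ID1 and ID3 were the members that passed the test, and both were lower after GLI1 knockdown. Same-numbered libraries share the start of a code in their descriptions, and whether they are paired is not stated. With the replicate number added to limma as a block (the replicate block), neither was called (adjusted p = 0.0558 for ID1 and 0.0672 for ID3). The myogenic factors MYOD1 and MYOG stayed among the most abundant transcripts in both groups and were not called. The E-protein gene TCF12 had a siGLI1 mean of 200.3% of the siNT2 mean, with an adjusted p above the threshold. Of the 10 members, 8 had a mean of 10 or more and entered the test. Of these 8, limma called 0 higher, where 7.21% of all genes were, and 2 lower, where 8.0% of all genes were. At an unadjusted p under 0.05 there were 2 higher and 2 lower. The share of all genes at that cut is not given here, so these counts cannot be set against it. Groups did not overlap in 5 of the 8, against 36.2% of all genes. The count test edgeR called the same 2 lower and 0 higher, where it called 15.2% of all genes in either direction. DESeq2 called 2 higher, TCF12 and MSC, and ID1 and ID3 lower, where it called 21.0% of all genes.

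**Figure D1:**
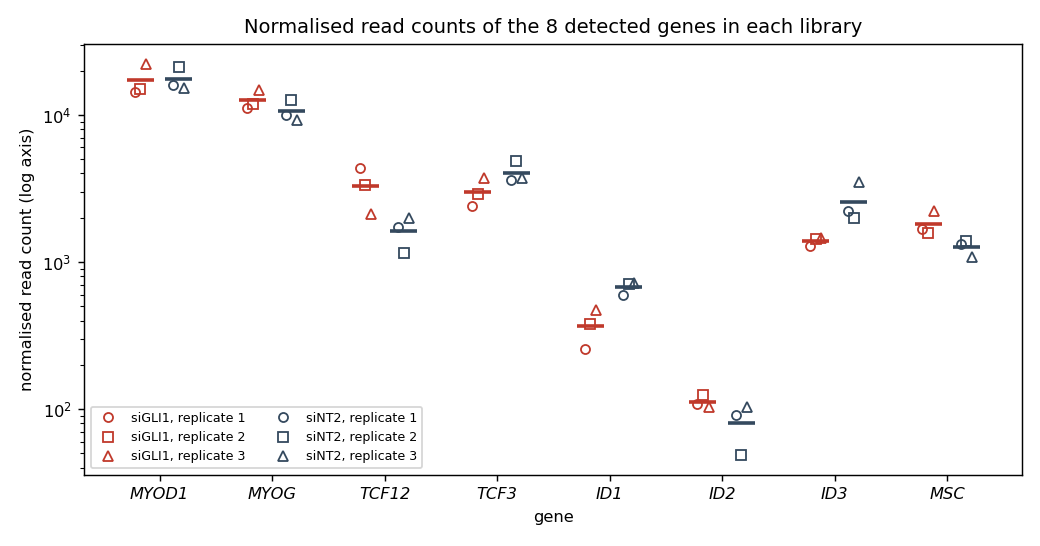
Normalised read count (log axis) of the 8 members with a mean of 10 or more, siGLI1 libraries in red and siNT2 libraries in dark blue, a marker shape per replicate number and a bar at each group mean. The ID1 and ID3 groups do not overlap, while those of MYOD1 and MYOG do.

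MYOD1 encodes the factor that can convert other cell types to muscle. Its normalised read count was 14203.5, 14930.0 and 22293.1 in siGLI1 replicates 1, 2 and 3, and 16013.3, 21237.6 and 15135.3 in siNT2 replicates 1, 2 and 3. The groups overlapped throughout, and the highest library of each group, siGLI1 replicate 3 and siNT2 replicate 2, stood well above its 2 partners. The means were 17142 ± 4476 in siGLI1 libraries and 17462 ± 3299 in siNT2 libraries (SD, n = 3 each), and their difference was -0.04 on the log2 scale (95% interval -0.53 to 0.45, adjusted p = 0.915). On a linear scale the interval runs from 0.693 to 1.36 times the siNT2 level. The sign of this value was not stable across settings. With the GC trend removed it was 0.26 (95% interval 0.01 to 0.51, adjusted p = 0.109). It was also above 0 without siGLI1 replicate 1 (0.08), siGLI1 replicate 2 (0.04) or siNT2 replicate 2 (0.11).

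MYOG encodes myogenin, the factor that drives terminal differentiation downstream of MYOD1. It was at 11155.8, 11859.0 and 14754.4 in siGLI1 replicates 1, 2 and 3, and at 10024.4, 12701.0 and 9229.5 in siNT2 replicates 1, 2 and 3. A single siNT2 library, replicate 2, lay inside the siGLI1 range, and the other siNT2 libraries lay below it. The difference was 0.24 on the log2 scale (95% interval -0.15 to 0.63, adjusted p = 0.36). It was 0.12 without siGLI1 replicate 3, 0.15 when siNT2 replicate 3 was left out and 0.38 when siNT2 replicate 2 was, and not called in any of these. After removal of the GC trend MYOG was called higher, at 0.39 (standard error 0.09, adjusted p = 0.00928). By mean count among the genes tested MYOD1 ranked 49 in siGLI1 and 48 in siNT2 libraries, and MYOG ranked 83 in siGLI1 and 112 in siNT2 libraries.

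MYF5, which acts in the earliest myoblasts, and MYF6, also called MRF4 and most abundant in mature muscle, were at the floor. MYF5 had 1, 0 and 1 reads and MYF6 had 1, 0 and 2 reads in siGLI1 replicates 1, 2 and 3. Both had 0 reads in all 3 siNT2 libraries, which allows up to 3 reads in each. No fold change is given for either, since no library exceeded 3 reads. MYOD1 and MYOG were thus the myogenic bHLH factors detected above the floor.

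The E-protein genes TCF12 and TCF3 had fold changes of opposite sign, neither of them called. TCF12, which encodes the E protein HEB, was at 4323.0, 3345.0 and 2113.6 in siGLI1 replicates 1, 2 and 3, and at 1731.7, 1151.1 and 2000 in siNT2 replicates 1, 2 and 3. Every siGLI1 library lay above every siNT2 library, but siGLI1 replicate 3 only just exceeded siNT2 replicate 3. Its means were 3261 ± 1107 in siGLI1 libraries and 1628 ± 434 in siNT2 libraries (SD, n = 3 each), and differed by 0.98 on the log2 scale (95% interval 0.29 to 1.67, adjusted p = 0.0652). Without siGLI1 replicate 3 it was called higher, at 1.26 (adjusted p = 0.0143, limma), and with the GC trend removed likewise, at 0.82 (adjusted p = 0.00435, limma). In the other fits without 1 library TCF12 was not called (0.75 to 1.15, adjusted p = 0.0792 to 0.211, limma). The replicate block did not call it either (adjusted p = 0.111, limma).

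TCF3, which encodes the E proteins E12 and E47 from a shared gene, was at 2409.4, 2887.0 and 3728.4 in siGLI1 replicates 1, 2 and 3, and at 3599.5, 4835.8 and 3720.8 in siNT2 replicates 1, 2 and 3. The groups overlapped, because siGLI1 replicate 3 exceeded siNT2 replicates 1 and 3. Its difference was -0.44 on the log2 scale (95% interval -0.89 to 0.01, adjusted p = 0.169), and -0.29 without siGLI1 replicate 1. It was called lower without siGLI1 replicate 3 (-0.61, adjusted p = 0.0477, limma) and not called with the GC trend removed (-0.23, adjusted p = 0.0645, limma). Over the 6 libraries the log2 values of TCF12 and TCF3 had a Pearson r of -0.98, the most negative of the 28 member pairs, as a description, since each library's depth and GC trend touch both genes. The longest coding transcript of TCF12 has a GC content of 40.8%, the lowest of the 10 members, and that of TCF3 61.2%. The remaining E-protein gene TCF4, named after its values were seen, was at 1137.2, 920.1 and 666.7 in siGLI1 replicates 1, 2 and 3, and at 537.0, 475.7 and 578.9 in siNT2 replicates 1, 2 and 3. TCF4 was thus higher in every siGLI1 library, by 0.74 on the log2 scale (95% interval 0.26 to 1.23, adjusted p = 0.0509), and was called higher with the GC trend removed (0.54, adjusted p = 0.00406, limma) or without siGLI1 replicate 3 (0.95, adjusted p = 0.0104, limma). TCF4 was not called in the other fits without 1 library (adjusted p = 0.0911 to 0.184, limma) or with the replicate block (0.116).

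**Figure D2:**
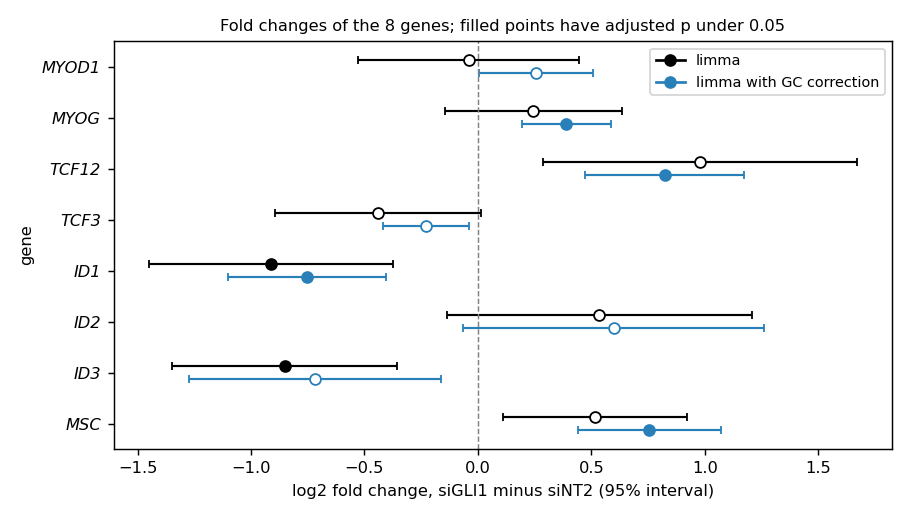
Log2 fold change, siGLI1 minus siNT2, with its 95% interval for the 8 members, from limma as reported (black) and after removal of the GC trend (blue), with filled points for an adjusted p under 0.05. ID1 is filled in both, ID3 only without the correction, and MYOG, TCF12 and MSC only with it.

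ID1 and ID3 encode inhibitors that bone morphogenetic protein (BMP) signals typically induce. ID1 was at 255.9, 376.2 and 475.1 in siGLI1 replicates 1, 2 and 3, and at 599.6, 707.9 and 720.9 in siNT2 replicates 1, 2 and 3. All siGLI1 libraries lay below all siNT2 libraries, and the siGLI1 libraries were the more widely spread. Its means were 369.1 ± 109.7 in siGLI1 libraries and 676.1 ± 66.6 in siNT2 libraries (SD, n = 3 each), so the siGLI1 mean was 54.6% of the siNT2 mean. ID1 fell by 0.91 on the log2 scale (95% interval -1.45 to -0.37, adjusted p = 0.0369), and by 0.75 with the GC trend removed (adjusted p = 0.00631, limma).

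ID3 was at 1275.4, 1425.1 and 1445.9 in siGLI1 replicates 1, 2 and 3, and at 2229.1, 1987.9 and 3487.2 in siNT2 replicates 1, 2 and 3. Here the siGLI1 libraries were tight, with a coefficient of variation of 6.73%, while siNT2 replicate 3 stood far above its partners, with a coefficient of variation of 31.4% in that group. Its means were 1382 ± 93.0 in siGLI1 libraries and 2568 ± 805 in siNT2 libraries (SD, n = 3 each), the siGLI1 mean being 53.8% of the siNT2 mean. ID3 fell by 0.85 (95% interval -1.35 to -0.36, adjusted p = 0.0358). With the GC trend removed ID3 was not called (-0.72, adjusted p = 0.0525, limma).

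The calls of ID1 and ID3 were lost in most fits that left out 1 library. Except without siGLI1 replicate 3, these fits called fewer of all genes, 283 to 750 higher and 358 to 810 lower. The fit to all 6 libraries called 1127 higher and 1249 lower. A lost call thus does not show that a particular library carried it. The ID1 call was lost, at adjusted p-values from limma, without siGLI1 replicate 1 (-0.67, 0.0635), siGLI1 replicate 2 (-0.95, 0.126), siNT2 replicate 1 (-1.0, 0.0927), siNT2 replicate 2 (-0.88, 0.0841) or siNT2 replicate 3 (-0.86, 0.103). The ID3 call was lost without siGLI1 replicate 1 (-0.79, 0.0819), siGLI1 replicate 2 (-0.87, 0.127), siNT2 replicate 1 (-0.93, 0.0893) or siNT2 replicate 3 (-0.61, 0.0556). The replicate block also removed both calls (adjusted p = 0.0558 for ID1 and 0.0672 for ID3, limma). With the block and the GC trend removed, ID1 was called (adjusted p = 0.0105, limma) and ID3 was not (0.0745). Both stayed below 0 in all 17 alternatives run, ID1 from -1.12 to -0.67 and ID3 from -1.01 to -0.61. So did TCF3, from -0.61 to -0.23.

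The RefSeq stretches of 250 bases before the transcription start of ID1 and ID3, the inhibitors that were called, are shown beside that of MYOG, the most abundant myogenic factor with an entry in the table used (MYOD1 and MSC are named only). They are written 5′ to 3′ in the direction of transcription, from GRCh38.p14, and capitals mark an E-box (CANNTG) or a TATAA match on either strand. ID1 lies on the plus strand at chr20:31605039-31605288, ID3 on the minus strand at chr1:23559502-23559751 and MYOG on the minus strand at chr1:203086013-203086262.

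ID1: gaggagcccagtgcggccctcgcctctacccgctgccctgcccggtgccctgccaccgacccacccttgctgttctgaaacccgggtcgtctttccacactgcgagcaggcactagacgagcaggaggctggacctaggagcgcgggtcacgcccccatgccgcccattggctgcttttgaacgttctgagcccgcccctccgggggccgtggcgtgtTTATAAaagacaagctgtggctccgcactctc

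ID3: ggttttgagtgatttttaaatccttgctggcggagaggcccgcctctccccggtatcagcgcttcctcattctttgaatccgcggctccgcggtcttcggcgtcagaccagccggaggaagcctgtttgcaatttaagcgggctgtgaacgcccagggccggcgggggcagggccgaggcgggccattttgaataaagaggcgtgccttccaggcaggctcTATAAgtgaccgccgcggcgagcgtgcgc

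MYOG: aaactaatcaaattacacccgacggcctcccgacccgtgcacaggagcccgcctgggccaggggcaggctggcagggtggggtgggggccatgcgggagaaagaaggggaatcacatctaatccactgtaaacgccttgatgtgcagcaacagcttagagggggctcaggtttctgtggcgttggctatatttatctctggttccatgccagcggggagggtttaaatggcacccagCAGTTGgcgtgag

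Neither ID stretch held an E-box, and both held TATAA letters near the start, starting 32 and 31 bases before it in ID1, where matches on opposite strands overlap, and 29 bases before it in ID3. MYOG held a single E-box, CAGTTG, 13 bases before the start. Over 35114 RefSeq promoters, 61.8% held CANNTG, 18.9% held TATAA, 16.4% held the BMP-SMAD motif GGCGCC and 0.199% held the GLI motif GACCACCCA, counted on both strands in the same 250 bases. CANNTG and GGCGCC read the same on both strands, and GACCACCCA was in no window of the 8 members that had an entry. The GGCGCC letters were found in 1 of the 5 TCF12 windows and in no other member. These are matches of letters in a short window and not sites of binding.

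ID2 was the lowest of the ID genes among the members. It was at 109.1, 124.7 and 103.7 in siGLI1 replicates 1, 2 and 3, and at 91.1, 48.7 and 102.9 in siNT2 replicates 1, 2 and 3. The groups did not overlap, but siGLI1 replicate 3 and siNT2 replicate 3 differed by less than 1 unit, and siNT2 replicate 2 rested on 48 reads. The difference was 0.54 on the log2 scale (95% interval -0.14 to 1.21, adjusted p = 0.248), so neither a level up to 2.31 times that of siNT2 nor a slightly lower one lies outside the interval. Without siNT2 replicate 2 the difference was 0.21 (adjusted p = 0.555, limma). ID4, the fourth family member, which was named after its values were seen, was lower still, at 35.2 ± 3.72 in siGLI1 libraries and 43.5 ± 14.1 in siNT2 libraries (SD, n = 3 each; adjusted p = 0.547, limma).

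MSC was at 1670.7, 1578.5 and 2207.4 in siGLI1 replicates 1, 2 and 3, and at 1319.9, 1394.5 and 1082.1 in siNT2 replicates 1, 2 and 3. All siGLI1 libraries lay above all siNT2 libraries. Its means were 1819 ± 340 in siGLI1 libraries and 1266 ± 163 in siNT2 libraries (SD, n = 3 each), and differed by 0.52 on the log2 scale (95% interval 0.11 to 0.92, adjusted p = 0.0877). It was called higher by DESeq2 (0.53, adjusted p = 0.0475) and with the GC trend removed (0.76, adjusted p = 0.00393, limma), where 32.1% of all genes were called. MSC was not called in any of the 6 fits without 1 library (0.37 to 0.61, adjusted p = 0.103 to 0.212, limma). The replicate block did not call it either (95% interval -0.02 to 1.05, adjusted p = 0.215, limma). GENCODE places MSC-AS1 on the opposite strand across MSC, and whether reads were counted by strand is not given in the sources used here, so reads of the pair may be shared. MSC-AS1 was also higher, at 198.5 ± 27.3 in siGLI1 libraries and 115.8 ± 21.4 in siNT2 libraries (SD, n = 3 each; log2 fold change 0.78, adjusted p = 0.0379). That call was lost without siGLI1 replicate 1 (adjusted p = 0.0969, limma), siGLI1 replicate 2 (0.164), siNT2 replicate 1 (0.126) or siNT2 replicate 2 (0.094). The replicate block removed it too (adjusted p = 0.117, limma). ID2-AS1 overlaps ID2 in the same way but was at 8.48 ± 3.24 in siGLI1 libraries and 8.20 ± 3.66 in siNT2 libraries.

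Because the calls of ID3, MYOG, TCF12 and MSC changed with the GC correction, the libraries were compared member by member. In siGLI1 replicate 3 and siNT2 replicate 2, the libraries in which GC-rich genes ran high, MYOD1 deviated from its group mean by 0.41 and 0.30 on the log2 scale and TCF3 by 0.33 and 0.27. TCF12 deviated in the same libraries by -0.56 and -0.46. ID3 deviated by 0.07 and -0.33 in these libraries, so it did not follow the same order. MYOD1, with a GC content of 65.5%, and TCF12, with 40.8%, are the ends of the members' GC range. What produced the trend was not tested.

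**Figure D3:**
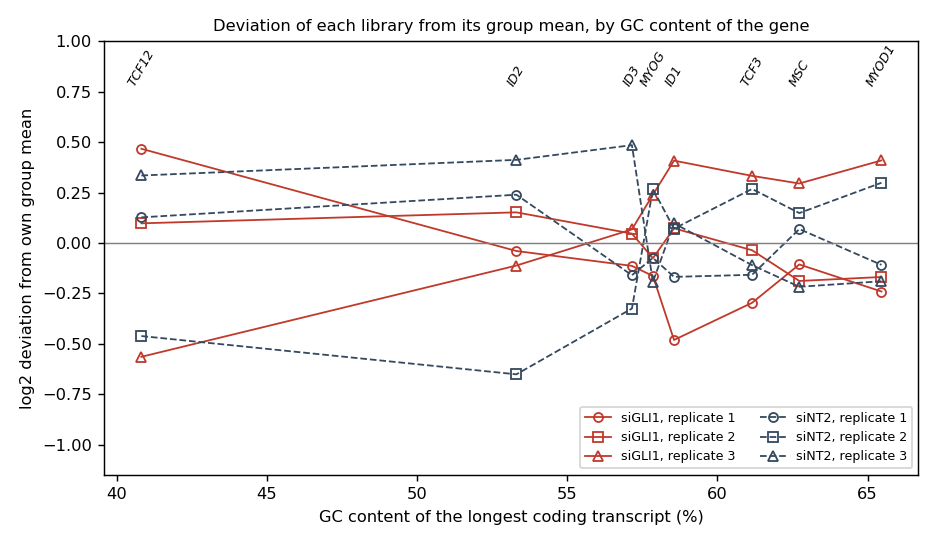
Log2 deviation of each library from its own group mean (vertical axis) against the GC content of the longest coding transcript in percent (horizontal axis) for the 8 members, siGLI1 in red with solid lines and siNT2 in dark blue with dashed lines. siGLI1 replicate 3 and siNT2 replicate 2 lie below 0 at TCF12 (-0.56 and -0.46) and above 0 at MYOD1 (0.41 and 0.30).

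Levels of different members were compared per kilobase of the longest coding transcript. MYOD1 was highest, at 9518 ± 2485 in siGLI1 libraries and 9696 ± 1832 in siNT2 libraries (SD, n = 3 each), followed by MYOG at 8239 ± 1248 in siGLI1 libraries and 6971 ± 1190 in siNT2 libraries. These neighbours overlapped in siGLI1 libraries, where MYOD1 ran from 7886 to 12378 and MYOG from 7301 to 9656, and did not in siNT2 libraries, where MYOD1 ran from 8404 to 11792 and MYOG from 6040 to 8312. ID3 followed at 1105 ± 74.4 in siGLI1 libraries and 2053 ± 644 in siNT2 libraries. In siGLI1 libraries MSC (899 ± 168), TCF3 (676 ± 150), TCF12 (538 ± 183), ID1 (299 ± 89.0) and ID2 (55.1 ± 5.35) came next, and in siNT2 libraries TCF3 (910 ± 153), MSC (626 ± 80.6), ID1 (548 ± 54.0), TCF12 (269 ± 71.6) and ID2 (39.6 ± 14). In siGLI1 libraries neighbours from ID3 to ID1 overlapped in their ranges, and ID1 and ID2 did not. In siNT2 libraries MSC and ID1 overlapped, while MYOG and ID3, ID3 and TCF3, TCF3 and MSC, ID1 and TCF12, and TCF12 and ID2 did not.

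The place of the E-protein genes in that order depends on the transcript used. Per kilobase of the median coding transcript TCF12 was at 1802 and TCF3 at 1718 in siGLI1 libraries, against 538.0 and 675.9 with the longest, and both means then exceeded that of ID3. In siNT2 libraries TCF3 was then at 2314, above ID3, and TCF12 at 899.7, below it. MYOD1 and MYOG were the highest members under either length.

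The level of MYOD1 plus MYOG, per kilobase, was 11.9, 10.7 and 13.8 times that of ID1, ID2 and ID3 together in siGLI1 replicates 1, 2 and 3. It was 6.68, 9.19 and 4.22 times in siNT2 replicates 1, 2 and 3. Every siGLI1 library had the higher ratio, and siNT2 replicate 2 came closest to the siGLI1 libraries. The sum of the ID genes was 1459 ± 161 per kilobase in siGLI1 libraries and 2641 ± 680 in siNT2 libraries, and that of MYOD1 and MYOG 17758 ± 3729 in siGLI1 libraries and 16667 ± 3019 in siNT2 libraries (SD, n = 3 each). These ratios restate the values of ID1 and ID3 given above and have no test of their own.

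Counting error was a small part of the spread for most members. It alone would give a coefficient of variation of 0.757% for MYOD1, 2.02% for TCF12, 4.31% for ID1 and 10.1% for ID2. The observed values were 26.1%, 34.0%, 29.7% and 9.71% in siGLI1 libraries for the same genes. Among the 8 tested members only ID2, in siGLI1 libraries, had an observed spread as low as its counting error.

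Of the members called, ID1 tracked SPINK5 (r = 0.997) and TMEM150A (r = 0.995) most closely by Pearson correlation of log2 values over the 6 libraries, among 11133 genes with a mean of 100 or more. ID3 tracked ARIH2 (r = 0.989) and MCM2 (r = 0.986). An r above 0.95 was common, reached by 239 genes for ID1 and 38 for ID3, and over libraries of 2 groups it largely follows the group difference. ID1 and ID3 themselves had an r of 0.82, and MYOG and MSC one of 0.87. These are descriptions over 6 libraries, in each of which depth and GC trend touch all genes.

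The 3' untranslated regions of the 10 members held no copy of GCACCTC, a heptamer that is more frequent among genes called lower in this experiment. Of 13129 tested genes with an annotated 3' untranslated region, 9.24% held it, and 18.2% of those were called lower, against 7.07% of the genes without it. These shares come from the same calls by which the heptamer is introduced, so they are descriptions and no test of it. ID1 and ID3 are among the genes without it. With 9.24% of tested genes holding it, its absence from the 10 members says little about them.

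Among muscle genes listed as bound by myogenic bHLH factors more rose than fell. The list was drawn up with earlier results of these data known, so its counts are a description. Of 32 tested, 13 rose, 2 fell and 17 were not called, with a median log2 fold change of 0.70, where 7.21% of all genes rose, 8.0% fell and the median was -0.01. ACTC1, the cardiac alpha actin of immature muscle, was at 30131.6, 35554.4 and 48944.7 in siGLI1 replicates 1, 2 and 3, and at 10892.9, 13002.2 and 13275.7 in siNT2 replicates 1, 2 and 3. It rose by 1.6 (standard error 0.19, adjusted p = 0.0025). TNNI1, the slow troponin I, rose by 1.09 (adjusted p = 0.00496), and MYL1, a fast myosin light chain, by 2.61 (adjusted p = 0.00285), with means of 60.2 ± 9.14 in siGLI1 libraries and 9.46 ± 3.68 in siNT2 libraries (SD, n = 3 each).

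Genes of the same list outside the naming rule, chosen after their values were seen, included the muscle acetylcholine receptor subunits and the fusion gene MYMK. CHRNA1 rose by 0.62 (adjusted p = 0.0112), CHRNB1 by 0.99 (adjusted p = 0.00725), MYMK by 1.57 (adjusted p = 0.0151) and the intermediate filament gene DES by 0.97 (adjusted p = 0.0153). The 2 that fell were MB and ATP2A1. MB, which encodes the oxygen-binding protein myoglobin, was at 61.7 ± 6.56 in siGLI1 libraries and 328.8 ± 37.1 in siNT2 libraries (SD, n = 3 each), and fell by 2.39 (adjusted p = 0.000389). ATP2A1, the calcium pump of fast fibres, fell by 1.37 (adjusted p = 0.0167). CKM, the muscle creatine kinase and a textbook MYOD1 target, was at 180.7 ± 56.7 in siGLI1 libraries and 102.6 ± 21.1 in siNT2 libraries and was not called (adjusted p = 0.098, limma), though it was without siGLI1 replicate 1 (0.0303) or with the GC trend removed (0.00315). Without siGLI1 replicate 2 the calls of CHRNA1 (adjusted p = 0.0696, limma), MYMK (0.069) and ATP2A1 (0.086) were lost. Without siNT2 replicate 1 those of CHRNA1 (0.0596), MYMK (0.0512) and DES (0.0535) were lost. The replicate block removed the calls of CHRNA1 (adjusted p = 0.0665, limma) and DES (0.0594). The number of the list called higher was 7 without siGLI1 replicate 2 or without siNT2 replicate 1, and 8 where a mean of 50 or more was required, with a median of 0.33. Of all genes, 283, 414 and 860 were called higher in these fits, the last among fewer genes tested, against 1127 in the main test. With the GC trend removed 19 of the list were higher and 4 lower, where 32.1% of all genes were called in either direction (2447 higher and 2563 lower).

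**Figure D4:**
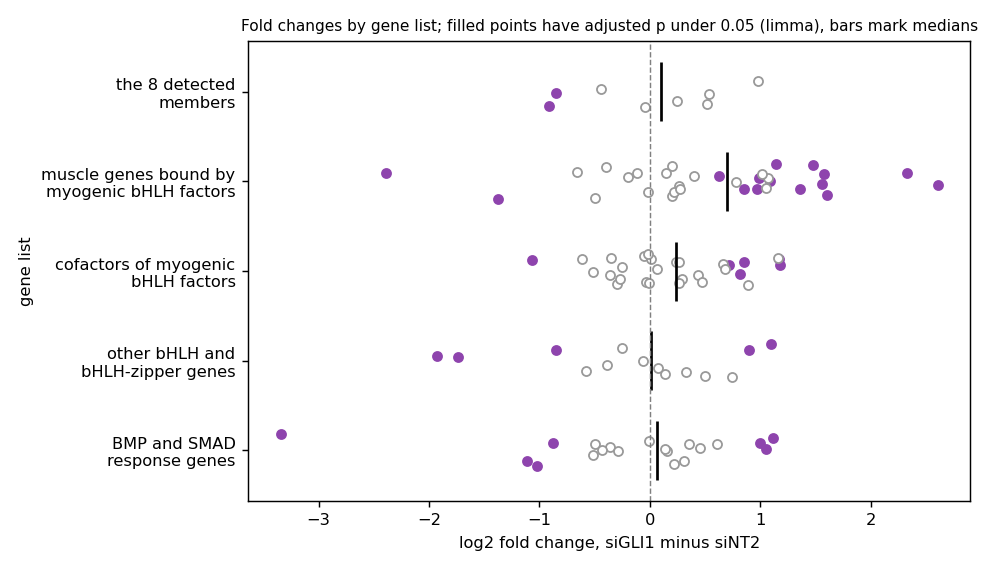
Log2 fold change, siGLI1 minus siNT2, of each tested gene in the members and in 4 related gene lists, filled purple for an adjusted p under 0.05 in limma, with a bar at each median. The muscle genes bound by myogenic bHLH factors have 13 filled points above 0 and 2 below, and the members 2 filled points, both below 0.

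Genes that act with the myogenic factors were described in the same way. Of 29 tested cofactors, 5 rose, 1 fell and 23 were not called (median 0.24), where 7.21% of all genes rose and 8.0% fell. EYA1, a transcriptional coactivator of muscle development, was at 1223 ± 285 in siGLI1 libraries and 535 ± 86.5 in siNT2 libraries (SD, n = 3 each), and rose by 1.18 (adjusted p = 0.0108), and ZBTB18, a zinc finger repressor, by 0.72 (adjusted p = 0.0125). CARM1, an arginine methyltransferase that coactivates MEF2 factors, fell by 1.07 (adjusted p = 0.028). Further calls, named after their values were seen, were MEF2C, a partner of MYOD1 on muscle promoters (0.85, adjusted p = 0.0394), and CDON, a cell surface receptor that promotes MYOD1 activity (0.82, adjusted p = 0.0354). When siGLI1 replicate 2 was left out EYA1 (adjusted p = 0.0604) and ZBTB18 (0.0786) lost their calls, ZBTB18 also without siNT2 replicate 1 (0.0635), and CARM1 lost its call, at adjusted p-values of 0.0561, 0.118, 0.0854, 0.0663 and 0.0505, when siGLI1 replicate 1, siGLI1 replicate 2, siNT2 replicate 1, siNT2 replicate 2 or siNT2 replicate 3 was left out. The number of cofactors called higher was 1 without siGLI1 replicate 2 and 2 without siNT2 replicate 1. It was 3 without siGLI1 replicate 1 or siNT2 replicate 2, and 8 without siGLI1 replicate 3. Of all genes, 283 were called higher without siGLI1 replicate 2, 414 without siNT2 replicate 1 and 711 without siGLI1 replicate 1. The same number was 750 without siNT2 replicate 2 and 1562 without siGLI1 replicate 3. With the GC trend removed 12 cofactors were higher and 4 lower, where 32.1% of all genes were called in either direction. CDON and MEF2C lost their calls without siGLI1 replicate 1 (adjusted p = 0.0882 and 0.0949, limma) or siGLI1 replicate 2 (0.138 and 0.161). Both calls were also lost without siNT2 replicate 1 (0.112 and 0.138) or siNT2 replicate 2 (0.0739 and 0.096). With the replicate block ZBTB18 (adjusted p = 0.069, limma), CARM1 (0.0643), CDON (0.0903) and MEF2C (0.111) were not called.

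Other bHLH and bHLH-zipper genes changed in both directions. Of 14 tested, 2 rose, 3 fell and 9 were not called (median 0.006), where 7.21% of all genes rose and 8.0% fell. With the GC trend removed 4 rose and 3 fell, where 32.1% of all genes were called in either direction. In the fits without 1 library 1 to 2 rose and 2 to 3 fell, with 1 higher without siGLI1 replicate 2, siNT2 replicate 1 or siNT2 replicate 3. Among all genes those fits called 283 to 1562 higher and 358 to 1705 lower. The list's median changed sign, to -0.17 without siGLI1 replicate 3, -0.03 without siNT2 replicate 3 and -0.16 with no filter on low values. It was also below 0 with TMM scaling (-0.004) and with library weights (-0.05). HEYL, a Notch-linked repressor of E-box genes, fell to 1220 ± 93.1 in siGLI1 libraries, against 4634 ± 171 in siNT2 libraries (SD, n = 3 each; log2 fold change -1.93, adjusted p = 0.000277). The paralogous repressors BHLHE41 and BHLHE40 went opposite ways. BHLHE41 was at 49.9 ± 9.68 in siGLI1 libraries and 169.9 ± 38.6 in siNT2 libraries and fell by 1.74 (adjusted p = 0.00393), while BHLHE40 was at 434.3 ± 38.6 in siGLI1 libraries and 203.2 ± 21.2 in siNT2 libraries and rose by 1.09 (adjusted p = 0.00453). NHLH1, a bHLH factor of neurons, rose by 0.90 (adjusted p = 0.0328). That call was lost without siGLI1 replicate 2 (adjusted p = 0.141), siGLI1 replicate 3 (0.0538), siNT2 replicate 1 (0.109) or siNT2 replicate 3 (0.0962). It was also lost with the replicate block (adjusted p = 0.0867, limma). TWIST1, an inhibitor of MYOD1, was at 48.1 ± 9.79 in siGLI1 libraries and 45.4 ± 6.41 in siNT2 libraries (SD, n = 3 each; adjusted p = 0.855, limma).

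Since BMP signals induce ID genes, components and responders of that pathway were set beside ID1 and ID3. Of 20 tested, 3 rose, 4 fell and 13 were not called, with a median of 0.06, where 7.21% of all genes rose and 8.0% fell. With the GC trend removed 4 rose, 6 fell and the median was -0.05, where 32.1% of all genes were called in either direction. Without siGLI1 replicate 2 or siNT2 replicate 1 a count of 1 higher and 1 lower was left, without siGLI1 replicate 1 or siNT2 replicate 2 there were 2 higher and 2 lower, and the median was -0.09 in both. Leaving out siNT2 replicate 3 gave 3 higher and 2 lower, and leaving out siGLI1 replicate 3 gave 3 higher and 7 lower. Among all genes the fits without 1 library called 283 to 1562 higher and 358 to 1705 lower, the fewest without siGLI1 replicate 2. The median of the list was 0.22 without siGLI1 replicate 3, 0.18 when siNT2 replicate 3 was left out, and -0.03 with no filter on low values. NOG, the secreted BMP antagonist noggin, was at 591.8, 581.7 and 627.2 in siGLI1 replicates 1, 2 and 3, and at 295.4, 242.4 and 297.4 in siNT2 replicates 1, 2 and 3. It rose by 1.11 (adjusted p = 0.00348). ACVR1, a type I BMP receptor, rose by 1.0 (adjusted p = 0.0112), and BAMBI, a pseudoreceptor that BMP signals induce, fell by 1.11 (adjusted p = 0.0119). The ACVR1 and BAMBI calls were lost without siGLI1 replicate 2 (adjusted p = 0.0666 and 0.0511) or siNT2 replicate 1 (0.0621 and 0.0647). With the replicate block neither was called (adjusted p = 0.0539 and 0.0537, limma).

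HAMP, the hepcidin gene and in the liver a BMP target, was at 0, 4.09 and 1.98 in siGLI1 replicates 1, 2 and 3, and at 22.0, 29.4 and 21.5 in siNT2 replicates 1, 2 and 3. It was called lower (adjusted p = 0.0103), with no fold given because the siGLI1 mean of 2.02 is under the floor. The inhibitory SMAD genes, named after their values were seen, were split: SMAD7 rose by 1.05 (adjusted p = 0.0264) and SMAD6 fell by 0.88 (adjusted p = 0.0437). The ligand gene BMP7, also named after its values were seen, fell by 1.02 (adjusted p = 0.0487). The SMAD6 and BMP7 calls were lost without any 1 library other than siGLI1 replicate 3, at adjusted p-values from limma of 0.0765 to 0.146 for SMAD6 and 0.0675 to 0.129 for BMP7. The SMAD7 call was lost without siGLI1 replicate 1 (0.0524), siGLI1 replicate 2 (0.127), siNT2 replicate 1 (0.103) or siNT2 replicate 2 (0.064). With the replicate block SMAD6 (adjusted p = 0.0582, limma) and SMAD7 (0.0796) were not called, while BMP7 was (0.0338). The pathway genes thus included both an antagonist that rose and responders that fell and rose, and their part in the ID values was not tested.

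**Figure D5:**
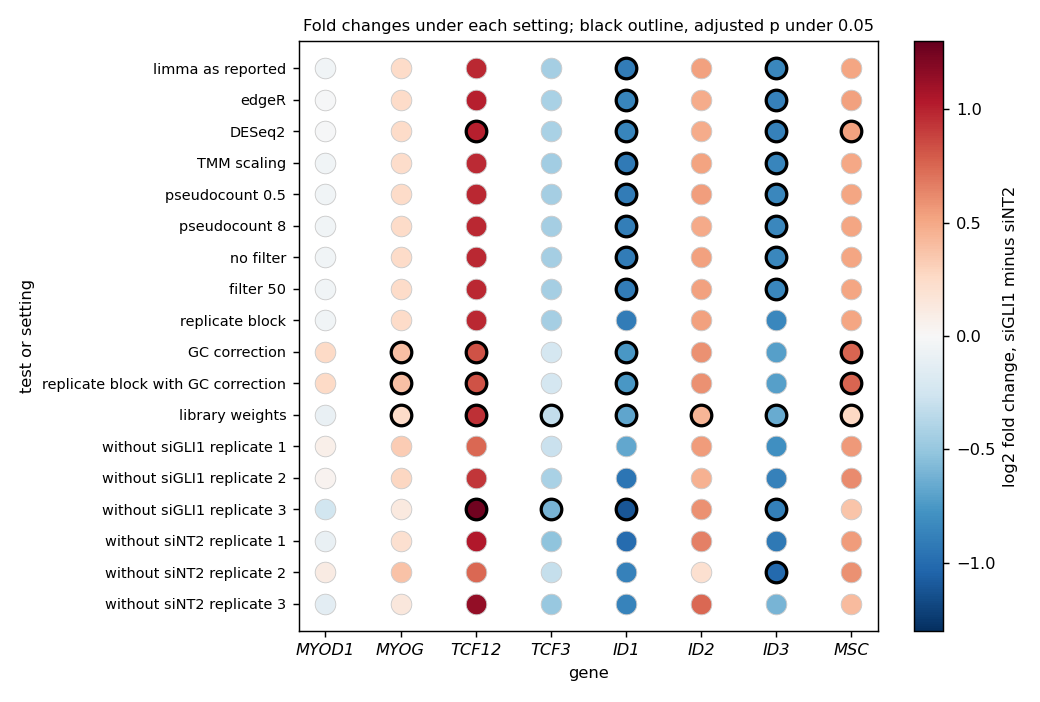
Log2 fold change, siGLI1 minus siNT2, of the 8 members (columns) under limma as reported and 17 other tests or settings (rows), blue for lower and red for higher in siGLI1, with a black outline for an adjusted p under 0.05. ID1, ID3 and TCF3 are blue in every row, TCF12, ID2, MSC and MYOG red in every row, and MYOD1 takes either colour.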

How the data were processed

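RNA sequencing of 6 RMS13 libraries (3 siGLI1, 3 siNT2) was used. Bowtie2 2.3.3.1, Subread 1.6.4, DESeq2 2.11.40.6, Trim Galore 0.4.5 and the build hg19 are listed, without their settings, in the submitters' processing notes; the annotation and the strand setting were not stated there. The deposited signal is a normalised count, and every library has its own scale factor. In every column 100% of values were whole multiples of 1 read within 0.01 reads, so whole reads were recovered for the count tests.

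Symbols came from RefSeq (GRCh38.p14; 92.2% of 25702 Entrez IDs matched), promoters from the same source, and lengths, GC content (93.8% of tested genes) and 3' ends from GENCODE 29. The test was limma 3.58.1 with a mean-variance trend in R 4.3.3 on log2(value + 1), for genes with a mean of 10 or more. edgeR 4.0.16, DESeq2 1.42.0, TMM scaling, pseudocounts of 0.5 and 8 and other filters were alternatives. So were a replicate block, a GC correction, library weights and leaving out each library. The GC correction was a spline on GC content of each library's deviation from the mean of all 6 libraries (5 degrees of freedom). Scripts were tested on simulated data. Replicate pairs differed by more than counting noise.

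The members and the gene lists were chosen with earlier results of these data known. Beside the members, the text names up to 4 genes of each related list with the smallest p-values, and the 2 genes that track each called member most closely. A gene outside this rule is said to be so. A cofactor that the rule names and a cell type marker are not reported here by name.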

Additional observations from a re-analysis of the deposited data

How the results depend on the processing

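The descriptions of same-numbered libraries start with a shared code, and no label says what it marks. Deviations of same-numbered libraries correlated across genes at 0.49, -0.11 and -0.61 for numbers 1, 2 and 3. Each library's own GC trend enters these values, so they cannot decide whether the libraries are paired. The main test did not pair them. With the replicate block limma called 462 genes higher and 508 lower, and 0 members in either direction (adjusted p = 0.0558 for ID1 and 0.0672 for ID3); NHLH1 (0.0867), ZBTB18 (0.069), CARM1 (0.0643), ACVR1 (0.0539) and BAMBI (0.0537) were not called with it either, nor CDON (0.0903), MEF2C (0.111), CHRNA1 (0.0665), DES (0.0594), SMAD6 (0.0582), SMAD7 (0.0796) and MSC-AS1 (0.117). Among all genes, 1127 higher and 1249 lower became 2447 and 2563 with the GC correction, 1938 and 2024 with the GC correction and the block, and 6209 and 6410 with library weights, whose estimation did not converge and which put weights of 8.25 and 70.4 on siGLI1 replicate 2 and siNT2 replicate 1 and at most 0.305 on the others. Leaving out 1 library gave 283 to 1562 genes higher and 358 to 1705 lower. Among the members, 0 higher and 2 lower became 2 higher with DESeq2, 3 higher and 1 lower with the GC correction (with or without the block), and 4 higher and 3 lower (ID1, ID3 and TCF3) with library weights. A threshold of 0.1 gave 2 higher and one of 0.01 gave 0 lower. Without 1 library 0 to 1 members were higher and 0 to 3 lower. MYOD1 changed sign to 0.26 with the GC correction (with or without the block) and ranged from -0.25 to 0.11 without 1 library. TMM scaling, both pseudocounts, both filters and edgeR left the member counts as they were. The cause of these shifts was not tested. With 3 libraries a group, intervals of the members span 0.78 to 1.38 on the log2 scale, from lower to upper bound.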
